A study of Mus musculus with 105 samples.

Results

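The subject here is a set of 5 genes known from the 2-cell stage of the mouse embryo: Zscan4c, Zscan4d, Zscan4f, Tcstv3 and Zfp352. They were chosen by name, and all 5 have a row in the single-cell table, where they stand among 34120 mouse genes, and in both bulk tables, where they stand among 52108. Female mouse embryonic stem cells of the F1 hybrid line TX1072 (clone A3, a cross of C57BL/6 and CAST/EiJ) were followed from day 0 to day 4 of differentiation by 2i/LIF withdrawal. On its B6 X chromosome, Xist stands behind a promoter that answers to doxycycline, and the rtTA activator sits in Rosa26. Single cells were captured on a C1-HT chip, 1 culture a day, and poly-adenylated RNA was counted at its 3′ end with a molecular identifier (UMI). Bulk RNA was sequenced from TX1072 and from 2 derived lines, TXdXicB6 and TXdXicCast, which lack 773 kb around the X-inactivation centre on the B6 or the Cast X chromosome. The deletion takes Xist with it, so TXdXicB6 lacks the doxycycline promoter and TXdXicCast keeps it. Each deletion line was 1 clone, so a line difference and a clone difference cannot be told apart. Each of the 3 lines was sampled on 5 days in 3 replicates, 45 libraries in all, with 16906263 to 57920260 counts a library. The TX1072 and deletion-line libraries were made with different kits and were never tested against each other, and the day 0 libraries of TXdXicCast were fragmented in another way because their RNA was degraded.

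Zscan4 genes code for proteins with a SCAN domain and zinc fingers. They are transcribed in a burst when the embryonic genome is activated in the 2-cell embryo, and again in a small, changing fraction of embryonic stem cells that are called 2-cell-like, in which they have been linked to telomere lengthening and genome stability. The homeodomain factor Dux switches on Zscan4, Tcstv3, Zfp352, the Usp17l ubiquitin proteases and many other genes of this state, Dppa2 and Dppa4 act upstream of Dux, and repressors such as Trim28 and Smchd1 keep the state rare. Tcstv3 codes for a small 2-cell protein linked to telomere maintenance, and Zfp352 for a zinc-finger protein of the early embryo. In bulk RNA, fewer cells of a type and less RNA per cell cannot be told apart.

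The 3 Zscan4 genes lie in 1 cluster on chromosome 7 (GRCm38, GENCODE M21), where 9 Zscan4 genes and annotated pseudogenes span 820 kb from 10794242 to 11614112. Zscan4c is at chr7:11005745-11010547 on the plus strand, Zscan4d at chr7:11161374-11166159 on the minus strand and Zscan4f at chr7:11397915-11402318 on the plus strand. Tcstv3 is at chr13:120316878-120318178 and Zfp352 at chr4:90218820-90225702, both on the plus strand. Exon-overlapping reads or UMIs were counted for all 5. The upstream sequence is shown because the Zscan4 copies are nearly the same in front of the gene. It is not part of the transcript and does not bear on how reads were assigned to the copies. The stretches below come from the RefSeq promoter table (GRCm38.p6), which held 4 of the 5 genes. They read 5′ to 3′ on the strand of the gene, upstream of the gene start, with the letters TATAAA in capitals for the Zscan4 genes and TAATCC in capitals for Zfp352.
Zscan4c, chr7:11005591-11005716, plus strand: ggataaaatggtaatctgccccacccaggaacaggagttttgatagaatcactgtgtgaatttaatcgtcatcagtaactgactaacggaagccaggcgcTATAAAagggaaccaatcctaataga
Zscan4d, chr7:11166188-11166313, minus strand: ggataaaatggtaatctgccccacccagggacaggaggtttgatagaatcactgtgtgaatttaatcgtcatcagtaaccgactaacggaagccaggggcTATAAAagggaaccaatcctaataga
Zscan4f, chr7:11397784-11397909, plus strand: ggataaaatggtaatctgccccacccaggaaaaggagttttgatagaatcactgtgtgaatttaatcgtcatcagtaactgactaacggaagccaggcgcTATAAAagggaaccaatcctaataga
Zfp352, chr4:90218640-90218819, plus strand: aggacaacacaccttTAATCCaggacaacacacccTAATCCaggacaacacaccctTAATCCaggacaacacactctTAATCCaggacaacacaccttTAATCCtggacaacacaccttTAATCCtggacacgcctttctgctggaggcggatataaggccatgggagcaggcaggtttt

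Over the 126 bases shown, Zscan4c and Zscan4f differed at 1 position (99.2% identity), Zscan4c and Zscan4d at 4 (96.8%) and Zscan4d and Zscan4f at 5 (96%). The letters TATAAA, searched on both strands in the 250 bases before each start, were found once in each Zscan4 promoter and not in that of Zfp352, and 12.4% of all 32851 promoters held them. TAATCC was found 9 times in the 250 bases of Zfp352, 6 of them in the 180 bases shown, and in none of the Zscan4 promoters. Of all promoters, 6.25% held TAATCC at least once and 0.295% at least 2 times, and Zfp352 was the 1 promoter with 5 or more. These matches describe letters, not sites of a factor.

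The transcripts of the Zscan4 genes also share sequence, and the authors counted uniquely aligned reads only. In the GENCODE M21 transcripts, 14.5% of the 50-base stretches of Zscan4c, 13.2% of those of Zscan4f and 50.4% of those of Zscan4d were found in no other gene, against 68.6% for Tcstv3 and 92.9% for Zfp352. Zscan4c shared 71.4% of its 50-base stretches with Zscan4-ps2 and 65.3% with Zscan4f. Longer stretches of 100 bases raised the share found in no other gene to 27.2% for Zscan4c, 19.4% for Zscan4f and 70.4% for Zscan4d. The level of a single Zscan4 copy is therefore uncertain, and the order of the copies among themselves is not read as an order of expression.

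**Figure D1:**
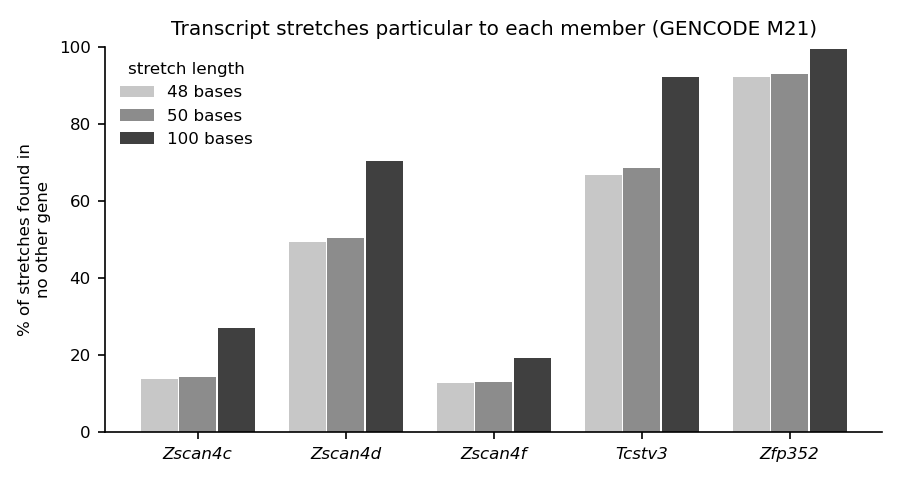
Percent of the 48-base, 50-base and 100-base stretches of each gene's transcripts (y axis) that occurred in the transcripts of no other gene, for the 5 genes (x axis). Zscan4c and Zscan4f had the smallest shares, 14.5% and 13.2% at 50 bases, and Zfp352 the largest, 92.9%.

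Bulk RNA of TX1072 showed how the genes moved through differentiation. All 5 were at or near 0 on days 0 and 1 and had their highest mean on day 3. The 3 Zscan4 copies and Tcstv3 were called higher from day 2 and fell from day 3 to day 4, whereas neither step was called for Zfp352. Their summed level was 0.0126 ± 0.0218 CPM (a gene's counts relative to the TMM-scaled total of its library, mean ± SD, n = 3) on day 0, 0.124 ± 0.145 on day 1, 1.08 ± 0.249 on day 2, 9.02 ± 1.76 on day 3 and 2.62 ± 0.976 on day 4. The day 3 sum was above that of every other day by more than the spread between replicates.

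Zscan4d had the most counts. Its level was 0, 0.0378 and 0 CPM in the 3 day 0 libraries, 0.418, 0.656 and 0.273 CPM on day 2, 3.98, 3.10 and 4.55 CPM on day 3, and 0.649, 0.540 and 1.38 CPM on day 4. No day 3 library overlapped with any library of another day. With 312 counts on day 3 against 1 on day 0, the ratio of the levels was 343 (95% counting interval 61.1 to 13600, adjusted p = 1.28e-08 by the quasi-likelihood test of edgeR with Benjamini-Hochberg adjustment, as for all adjusted p below). Its fitted log2 fold change on day 3 ran from 7.30 to 10.06 when 1 replicate number was left out, highest without replicate 2, which held the 1 day 0 count.

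Zscan4c and Zscan4f had no count at all in the 6 libraries of days 0 and 1. Zscan4c reached 0.380, 0.343 and 0.109 CPM on day 2, 1.65, 1.74 and 2.46 CPM on day 3, and 0.273, 0.445 and 0.660 CPM on day 4. Zscan4f reached 0.304, 0.200 and 0.218 CPM on day 2, 1.36, 0.923 and 1.42 CPM on day 3, and 0.478, 0.381 and 0.510 CPM on day 4. For both copies, the day 3 libraries stood above all others. Against a floor of 3 counts over the day 0 group, Zscan4c was at least 57.1-fold higher on day 3 (adjusted p = 7.39e-07) and Zscan4f at least 36.6-fold higher (adjusted p = 2.34e-07).

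Tcstv3, the small 2-cell protein gene, was also without a count on days 0 and 1. Its level was 0.114, 0.0285 and 0.0545 CPM on day 2, 1.00, 0.706 and 1.33 CPM on day 3, and 0.376, 0.191 and 0.360 CPM on day 4. It was at least 30.4-fold higher on day 3 than on day 0 (adjusted p = 2.4e-06), with no overlap between day 3 and any other day. Zfp352 kept another order: it was 0 in all day 0 libraries, 0.175, 0.0247 and 0 CPM on day 1, and 0, 0 and 0.136 CPM on day 2. It was then 1.36, 0.652 and 0.821 CPM on day 3 and 0.273, 0.508 and 0.839 CPM on day 4. The day 3 and day 4 libraries of Zfp352 overlapped, and day 3 was at least 27.8-fold above day 0 (adjusted p = 0.000101).

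Per kilobase of exon, the mean day 3 levels in TX1072 were 1.71 ± 0.321 CPM per kb for Zscan4d, 1.30 ± 0.398 for Tcstv3, 0.857 ± 0.196 for Zscan4c, 0.631 ± 0.139 for Zscan4f and 0.415 ± 0.163 for Zfp352 (SD, n = 3). The ranges of every pair of neighbours in this order overlapped, so no neighbours differed beyond their spread. All exon bases were used as the length, although only uniquely aligned reads were counted. The share of 50-base stretches found in no other gene ran from 13.2% (Zscan4f) to 92.9% (Zfp352). The order is therefore not read as an order of expression.

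**Figure D2:**
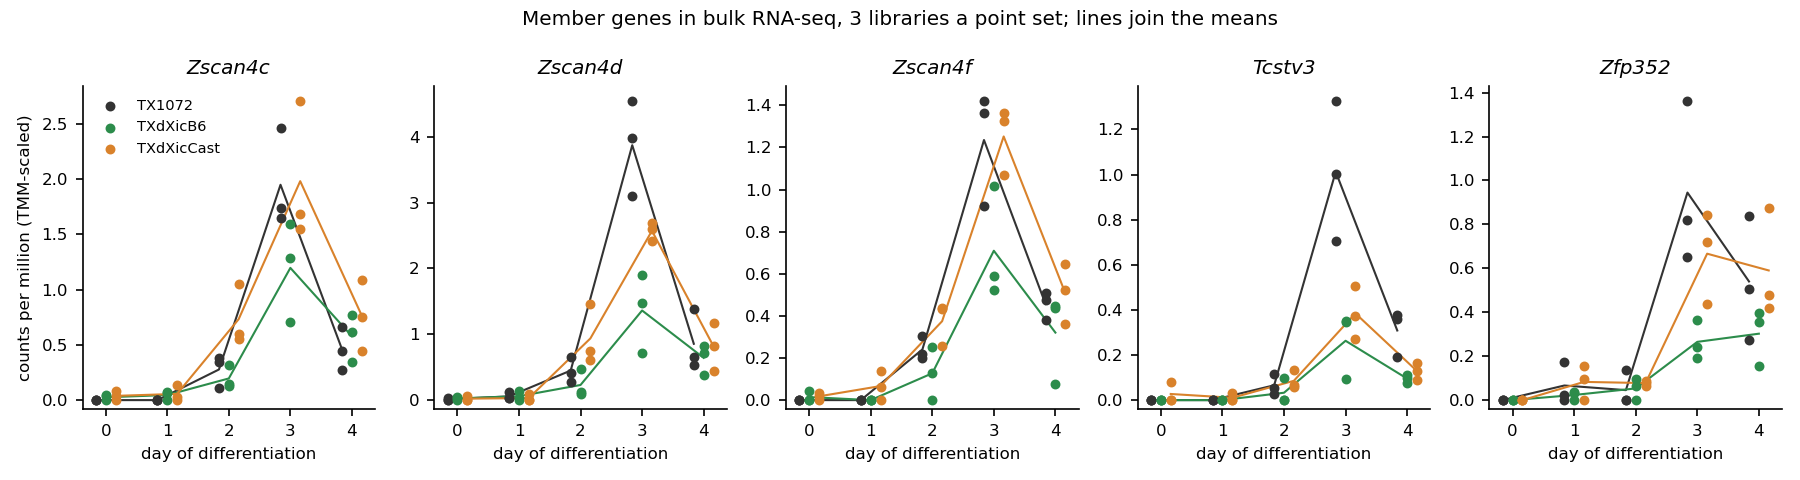
TMM-scaled CPM (y axis, linear, a scale of its own in each panel) of the 5 genes against day of differentiation (x axis) in TX1072 (black), TXdXicB6 (green) and TXdXicCast (orange). Points are the 3 libraries of a line and day and lines join their means. TX1072 was scaled apart from the deletion lines. The means are highest on day 3 in all panels except that of Zfp352 in TXdXicB6.

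Tested against day 0 over 18871 genes, none of the 5 passed the adjusted p of 0.05 on day 1 by edgeR, when 23.5% of all genes were called higher. None had an unadjusted p under 0.05 either, and DESeq2 called 1, Zfp352. On day 2, 4 of the 5 were called higher, all but Zfp352 (adjusted p = 0.162), beside 28.8% of all genes. The day 2 call of Tcstv3, which rests on 6 counts, was lost without day 0 replicate 1, day 0 replicate 2 or day 2 replicate 1, with adjusted p from 0.0532 to 0.0719. All 5 were called higher on day 3 (28.1% of all genes) and on day 4 (30.2%). On day 4 the levels were at least 13.3-fold above day 0 for Zscan4c, at least 13-fold for Zscan4f, at least 8.8-fold for Tcstv3 and at least 15.8-fold for Zfp352, and the ratio for Zscan4d was 74.6 (13 to 2980). The fitted log2 fold change of Zscan4d on day 4, 5.78, ran from 4.90 to 8.00 without 1 replicate number. The 4 comparisons with day 0 share the day 0 libraries.

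The steps between days were tested in the same fit and were added with the values known. From day 2 to day 3, all 5 genes were called higher, where 13.8% of all genes were. The log2 fold changes were 3.11 ± 0.39 (SE) for Zscan4d, 2.85 ± 0.43 for Zscan4c, 2.38 ± 0.36 for Zscan4f, 3.98 ± 0.53 for Tcstv3 and 4.14 ± 0.83 for Zfp352, with adjusted p from 1.52e-05 to 0.00143. The day 2 counts of Zfp352 came from replicate 3 alone, and its change was 3.35 without replicate 1, 3.73 without replicate 2 and 7.99 without replicate 3. From day 3 to day 4, 4 of the 5 fell, where 11.9% of all genes were called lower. Zscan4d changed by -2.17 ± 0.37 on the log2 scale (adjusted p = 0.000272), Zscan4c by -2.07 ± 0.40 (0.00179), Tcstv3 by -1.73 ± 0.41 (0.00669) and Zscan4f by -1.45 ± 0.33 (0.00483). Zfp352 changed by -0.81 ± 0.58 and missed the threshold (adjusted p = 0.33). The call of Zscan4f was lost without replicate 1 (adjusted p = 0.0584) or replicate 3 (0.0717), and that of Tcstv3 without replicate 3 (0.0961).

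In the deletion lines the summed level of the 5 genes was again low on days 0 and 1 and higher from day 2. In TXdXicB6 the 5 genes summed to 0.0653 CPM on day 0, 0.128 ± 0.0554 on day 1, 0.640 ± 0.192 on day 2, 3.80 ± 1.50 on day 3 and 1.94 ± 0.787 on day 4. In TXdXicCast they summed to 0.106 CPM on day 0, 0.248 ± 0.0827 on day 1, 2.21 ± 0.577 on day 2, 6.86 ± 0.840 on day 3 and 2.81 ± 1.02 on day 4 (SD, n = 3). In both lines the sum was highest on day 3.

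On day 3, Zscan4d was at 1.48, 1.90 and 0.711 CPM in the TXdXicB6 libraries and at 2.42, 2.70 and 2.59 CPM in those of TXdXicCast. Zscan4c was at 1.29, 1.59 and 0.711 CPM in TXdXicB6 and 1.55, 1.69 and 2.71 CPM in TXdXicCast. Replicate 3 of TXdXicB6 was the lowest for both copies, and the 2 lines overlapped for Zscan4c but not for Zscan4d. Zscan4f was at 0.590, 1.02 and 0.521 CPM in TXdXicB6 and 1.36, 1.07 and 1.33 CPM in TXdXicCast, without overlap. Tcstv3 was at 0.349, 0.345 and 0.0948 CPM in TXdXicB6 and 0.272, 0.506 and 0.375 CPM in TXdXicCast. Zfp352 was at 0.241, 0.365 and 0.190 CPM in TXdXicB6 and 0.436, 0.844 and 0.721 CPM in TXdXicCast. The libraries of the 2 lines overlapped for Tcstv3 and were apart for Zfp352.

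Against day 0 of the same line, over 19885 genes, TXdXicB6 had none of the 5 called on day 1, beside 23.9% of all genes called higher (0 at an unadjusted p under 0.05 and 0 by DESeq2). On day 2 it had 3 (Zscan4c, Zscan4d and Zfp352, beside 28.9% of all genes called higher), and on days 3 and 4 all 5 (29.8% and 30%). These day 2 calls rest on 18 counts of Zscan4c, 20 of Zscan4d and 5 of Zfp352, and leaving out 1 library at a time changed 12 calls. Zscan4c was lost without replicate 1 of day 0 or of day 2 (adjusted p = 0.0618 and 0.0883), and Zscan4d without day 0 replicate 1 or 2 or day 2 replicate 3 (0.0546 to 0.185). Zfp352 was lost without any 1 of the 3 day 0 libraries and without day 2 replicate 1 or 2 (0.0799 to 0.141), whereas Zscan4f (adjusted p = 0.0505) passed without day 0 replicate 3 (0.0308) or day 2 replicate 1 (0.0104). On day 3 the ratios to day 0 were 51.3 (14 to 428) for Zscan4c, 59.4 (16.2 to 495) for Zscan4d and 60.5 (10.6 to 2420) for Zscan4f (fitted log2 fold change 5.44, and 4.49 to 7.71 without 1 replicate number, highest without replicate 3), and Tcstv3 and Zfp352 were at least 7.73-fold and 7.5-fold higher. The fitted log2 fold change of Zscan4c, 5.38, ran from 4.85 to 6.02 without 1 replicate number. That of Zscan4d, 5.57, ran from 5.04 to 6.25. Leaving out any 1 library changed none of the day 3 and day 4 calls against day 0 in TX1072 and TXdXicB6. Without 1 replicate number, the count called on day 4 in TXdXicB6 was 4 to 5.

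TXdXicCast had 1 of the 5 called higher on day 1 (Zfp352, adjusted p = 0.00937, 30.6% of all genes), 4 on day 2 (34.5%), 5 on day 3 (35.8%) and 4 on day 4 (36.2%). The day 1 count was 0 to 1 without 1 replicate number, and leaving out 1 library changed 0 of the day 1 calls. Tcstv3 was the gene that missed on days 2 and 4, with adjusted p of 0.401 and 0.0889. Its 4 day 0 counts all came from replicate 3, and without that library its adjusted p was 0.0458 on day 2 and 0.012 on day 4. On day 3 the level of Zscan4c was 39 times that of day 0 (16.4 to 121), a fitted log2 fold change of 5.20 ± 0.61, and the ratio was 122 (33.4 to 1020) for Zscan4d and 61.9 (16.8 to 517) for Zscan4f. The fitted log2 fold change of Zscan4d ran from 5.79 without replicate 3 to 9.36 without replicate 2. That of Zscan4c ran from 5.08 to 6.00 and that of Zscan4f from 5.37 to 6.17 without 1 replicate number. Tcstv3 was 8.61 times its day 0 level (3.05 to 33.5, counting error only), and its fitted log2 fold change of 3.10 ran from 2.42 to 6.58 when 1 replicate number was left out, highest without replicate 3. Zfp352 was at least 20.1-fold higher. Against day 1, whose libraries were made like the later ones, all 5 were called higher on day 4 in TXdXicCast, where 29.3% of all genes were. There the call of Tcstv3 was lost without day 1 replicate 2, day 1 replicate 3 or day 4 replicate 1 (adjusted p from 0.0626 to 0.075).

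The step from day 3 to day 4 was tested in each deletion line, apart from TX1072. At an unadjusted p under 0.05 by edgeR, 4 of the 5 genes passed in TX1072, in TXdXicB6 and in TXdXicCast. The share of all genes at that unadjusted p was not counted. The shares given for the adjusted p are no background for these counts. The numbers of calls past the adjusted p were not tested between the lines. In TXdXicB6 none of the 5 passed between day 3 and day 4, where 7.49% of all genes were called lower, and the log2 changes of the 3 Zscan4 copies ran from -1.11 to -1.06. Before adjustment, 4 of the 5 had p under 0.05 there by edgeR, all but Zfp352 (log2 change 0.16 ± 0.51), and DESeq2 also called 0. In TXdXicCast, Zscan4d fell by 1.67 ± 0.47 (adjusted p = 0.0127) and Zscan4c by 1.41 ± 0.42 (0.0173) on the log2 scale, where 8.89% of all genes were called lower. The call of Zscan4d was lost without day 4 replicate 3 (adjusted p = 0.0974), and that of Zscan4c without day 3 replicate 3 (0.0954), day 4 replicate 1 (0.0505) or day 4 replicate 3 (0.125). Replicate 3 also stood apart in its markers on both days. Its trophoblast sum was 409 CPM against 179 and 145.5 in replicates 1 and 2 on day 3, and 1371 against 868 and 801.5 on day 4. Its formative sum was 1383 CPM against 2039 and 2089 on day 3, and 684 against 1083 and 1213 on day 4. Their part in the calls was not tested. Zscan4f changed by -1.28 ± 0.49 there, with an adjusted p of 0.0686, and of 0.0418 when the replicate number was a block.

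The direct comparison of the 2 deletion lines called none of the 5 genes on any day, where 19.8% of all genes were called on day 0, 0.402% on day 1, 0.372% on day 2, 1.26% on day 3 and 5.86% on day 4. At an unadjusted p under 0.05 edgeR had 0, 1, 3, 1 and 0 of the 5 on days 0 to 4, and DESeq2 called 1, Zscan4d on day 2 (adjusted p = 0.0457). The share of all genes at that unadjusted p was not counted, so the shares above are no background for these counts. The smallest unadjusted p were those of Zscan4d and Zscan4c on day 2. Zscan4d was at 0.608, 0.745 and 1.46 CPM in TXdXicCast and 0.126, 0.0981 and 0.466 CPM in TXdXicB6, a log2 difference of 2.03 ± 0.58 (adjusted p = 0.217). Zscan4c was at 0.549, 1.05 and 0.597 CPM in TXdXicCast and 0.314, 0.131 and 0.144 CPM in TXdXicB6, a log2 difference of 1.82 ± 0.53 (adjusted p = 0.223). The libraries of the 2 lines did not overlap on day 2 for either copy, and neither difference passed the test over all genes. How many of all genes were without overlap on that day was not counted. The change from day 0 also differed between the lines for none of the 5 on any day, beside 4.6%, 6.57%, 9.12% and 15% of all genes on days 1 to 4, with 0 at an unadjusted p under 0.05 and 0 by DESeq2. The day 0 libraries of TXdXicCast came from degraded RNA and were fragmented in another way. Line and library preparation therefore cannot be told apart in the day 0 comparison or in the changes from day 0, for the 5 genes or for all genes. A p above the threshold does not show that the lines were alike.

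Most of the other 2-cell-like genes that could be tested were called higher on day 3. A list of 42 such genes had 41 in the tables, of which 25 had enough counts to be tested in TX1072 and 27 in the deletion lines. In TX1072, 24 of 25 were called higher on day 3 than on day 0 and none lower (all genes: 28.1% higher and 27.9% lower). The median fitted log2 fold change was 5.56 (all genes: -0.02). Some of the listed genes had no day 0 count, where a fitted fold is no measured size, so this median is descriptive only. The counts against day 0 were 0 higher and 3 lower on day 1 (all genes: 23.5% and 23.4%), 18 and 1 on day 2 (28.8% and 27.2%), and 21 and 1 on day 4 (30.2% and 29.4%). From day 2 to day 3 all 25 were called higher (13.8% of all genes), and from day 3 to day 4 none was higher and 21 were lower (11.9% of all genes were lower). In the deletion lines 23 of 27 were higher on day 3 in TXdXicB6, with 1 lower, and 26 of 27 in TXdXicCast, with none lower, beside 29.8% higher and 28% lower of all genes in TXdXicB6 and 35.8% and 32.8% in TXdXicCast. The genes had to pass a minimum count in some group to be tested, so these counts describe the tested genes only, and many share sequence with one another.

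The mean level was highest on day 3 for 24 of the 25 tested genes in TX1072 and for 26 of 27 in each deletion line. A gene can pass the minimum count through its highest day alone, and untested genes are left out. These tallies therefore describe the tested genes and do not test on which day the listed genes peak. The exception in every line was B020004J07Rik, which was highest on day 0. It was at 1.03, 0.833 and 0.674 CPM on day 0 in TX1072, at 0.0761, 0.200 and 0.245 CPM on day 2 and at 0.502, 0.706 and 0.789 CPM on day 3. The 3 largest fitted rises on day 4 were those of Zscan4-ps3, Zscan4-ps1 and Usp17lb, none of which had a day 0 count in TX1072. A fitted fold over a group at 0 counts is no measured size, so this order only chose which genes to name. Zscan4-ps3 was at 3.12, 2.77 and 4.67 CPM on day 3, and Usp17lb, a ubiquitin protease gene, at 2.04, 0.923 and 2.40 CPM. Zscan4a, annotated as a pseudogene in this cluster, was at 0.027, 0.0378 and 0 CPM on day 0 and at 2.98, 2.39 and 4.10 CPM on day 3 (log2 fold change 6.87 ± 0.52, adjusted p = 2.73e-09). Tcstv1, the neighbouring relative of Tcstv3, rose by 5.06 ± 0.64 on the log2 scale (adjusted p = 4.4e-06).

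**Figure D3:**
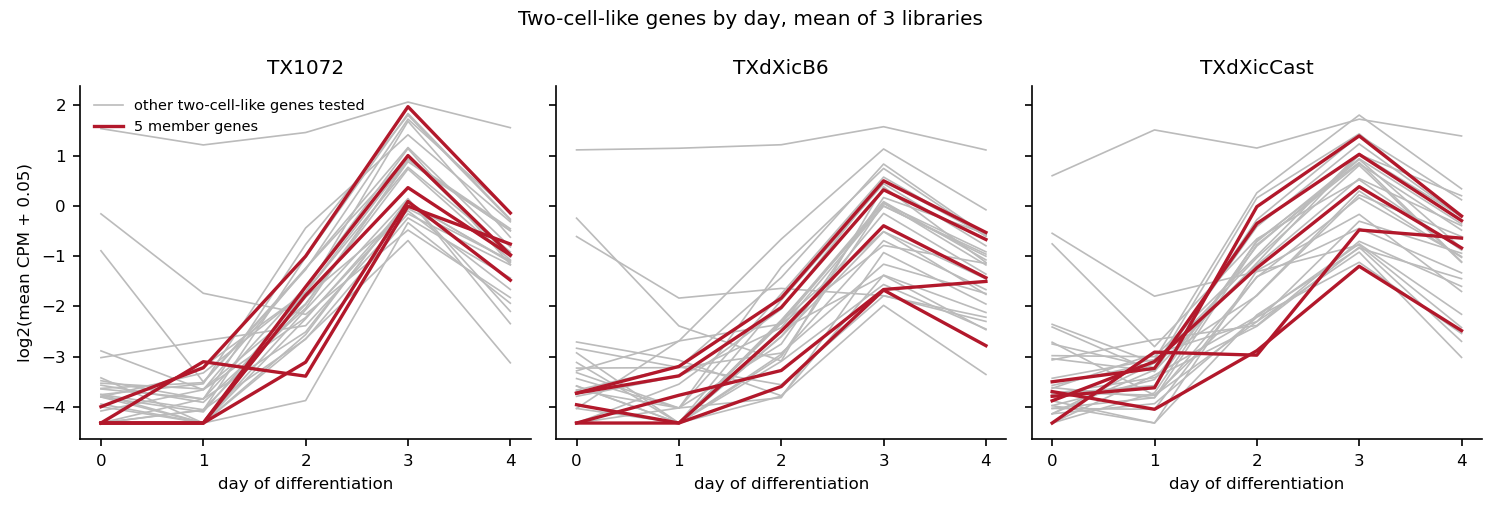
log2 of the mean CPM of 3 libraries plus 0.05 (y axis) against day (x axis), for the 5 genes (red) and for the other tested 2-cell-like genes (grey, 25 in TX1072 and 27 in the deletion lines), with a panel for each line. Nearly all lines rise to day 3 and fall to day 4.

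Over the 15 TX1072 libraries, genes were ranked by how closely their log2(CPM + 0.05) followed the mean of that value over the 5 genes. The closest were Gm21818 (Pearson r = 0.988), Zscan4-ps3 (0.985), Gm21761 (0.984), Zscan4a (0.983), Gm21939 (0.981), Zscan4-ps1 (0.977), Gm21542 (0.975), Gm21037 (0.973), Gm13078 (0.969) and Usp17lb (0.968). The libraries share their days, so these values only describe a common course. Tcstv3 shares 19% of its 50-base stretches with Gm21818 and 10.1% with Gm21761. Of these 10 genes, 5 were on the list above.

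Dux itself, listed as Duxf3, had too few counts to be tested. In TX1072 it had 0 counts on days 0, 1 and 4, then 4, 3 and 3 counts on day 2 and 1, 1 and 9 counts on day 3. In the deletion lines it reached 11 counts in 1 library, replicate 1 of TXdXicCast on day 3. Over the 3 libraries of a day, the counts on days 0 to 4 were 1, 0, 4, 14 and 2 in TXdXicB6 and 7, 0, 6, 18 and 3 in TXdXicCast, so day 3 held the most in each line, and day 0 of TXdXicCast held about as many as its day 2.

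In TX1072, Dppa2 and Dppa4, which act upstream of Dux, had higher means on days 1 and 2 than on day 3, and Dppa3 rose from day 1 to day 3 and was lower on day 4. There Dppa2 was at 53.4 ± 7.83 CPM on day 0, 101 ± 8.19 on day 1, 82.9 ± 2.33 on day 2, 62.2 ± 4.48 on day 3 and 30.4 ± 10.9 on day 4 (SD, n = 3). It rose by 0.92 ± 0.18 on the log2 scale on day 1 (adjusted p = 0.000439), was not called on day 3 (0.22 ± 0.18, adjusted p = 0.332) and fell by 0.81 ± 0.18 on day 4 (adjusted p = 0.00097). Dppa4, its partner, was at 58.0 ± 3.97 CPM on day 0, 123.8 ± 4.56 on day 1, 121.5 ± 8.64 on day 2, 83.9 ± 5.64 on day 3 and 43.8 ± 7.00 on day 4. Dppa3, a maternal factor that protects methylation marks in the zygote, was at 47.8 ± 7.91 CPM on day 0, 3.15 ± 0.892 on day 1, 14.7 ± 2.11 on day 2, 38.5 ± 4.21 on day 3 and 18.2 ± 2.43 on day 4. Dppa3 was thus low on day 1, near its day 0 level on day 3 (log2 difference -0.31 ± 0.17, adjusted p = 0.125) and lower again on day 4. Of the 5 activators listed, 0 were called higher and 4 lower on day 4 in TX1072 (30.2% and 29.4% of all genes), and Zscan5b was among those lower (log2 change -1.61).

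Among 29 listed repressors of the state, 5 were called higher and 12 lower on day 3 in TX1072 (28.1% and 27.9% of all genes), and 5 higher and 16 lower on day 4 (30.2% and 29.4%). Trim28, the corepressor of zinc-finger proteins, was at 2080 ± 416 CPM on day 0 and 1506 ± 84.1 on day 3 (log2 change -0.47 ± 0.13, adjusted p = 0.0047). Zfp42, a stem cell gene also known as Rex1, fell from 335 ± 20.3 to 52.2 ± 2.26 CPM over the same days (-2.68 ± 0.10). Smchd1, a chromatin protein that silences repeats and the inactive X, rose from 146 ± 12.7 to 260 ± 20.1 CPM (0.83 ± 0.13, adjusted p = 2.91e-05), and Spop rose from 22.4 ± 2.40 to 51.3 ± 3.09 CPM. The deletion lines had 7 higher and 12 lower (TXdXicB6) and 8 higher and 14 lower (TXdXicCast) of the 29 on day 3, beside 29.8% and 28% of all genes in TXdXicB6 and 35.8% and 32.8% in TXdXicCast.

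Of 16 genes of telomere upkeep, meiotic chromosomes and DNA methylation, 3 were higher and 9 lower on day 4 in TX1072 (30.2% and 29.4% of all genes). The DNA methyltransferase gene Dnmt3b rose from 184.5 ± 34.9 CPM on day 0 to 1709 ± 50.5 on day 2 and was at 1453 ± 108 on day 3. The demethylating enzyme gene Tet2 fell from 433.7 ± 30.9 to 19.0 ± 2.92 CPM by day 3 (log2 change -4.51 ± 0.17), and Uhrf1, which maintains methylation at replication, by 1.46 ± 0.12 on the log2 scale. Tet2 was at 46.6 ± 8.13 CPM on day 2, when the 5 genes summed to 1.08 CPM.

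Markers of the cells the cultures could hold also moved with the days. The summed level of 8 stem cell markers was 6378 CPM (median of 3 libraries) on day 0, 3289 on day 1, 1974 on day 2, 1807 on day 3 and 1752 on day 4 in TX1072. That of 5 formative markers was 261 CPM on day 0, 3091 on day 2, 2101 on day 3 and 875 on day 4. The sum of 6 trophoblast markers was 15.9 CPM on day 0, 205 on day 3 and 977.5 on day 4. On day 3 most of it was Krt8 (184 ± 41.0 CPM, SD, n = 3), and Elf5 was near 0 (0.16 CPM). That of 6 primitive endoderm markers went from 5.53 to 34.4 CPM between days 0 and 4, most of it Dab2, and that of 6 fibroblast markers was 25.2 CPM on day 0 and 17.1 CPM on day 4. Single markers did not all move with their sum. In the single cells, Fgf5 went from 0.179 CPM on day 0 to 315 on day 4 and was the only formative marker highest on day 4. Tdgf1 went from 336 to 683 CPM, while every other stem cell marker was lower on day 4 than on day 0. Gata3 (11.7 and 8.94 CPM) and Cdx2 were lower on day 4 than on day 0, unlike the other trophoblast markers. None of these sums had its highest value on day 3, and their part in the course of the 5 genes was not tested.

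Few single cells had a UMI of these genes. Of 2000 capture sites, 1472 were retained by the authors as cells, from 257 to 341 a day, with a median of 132850 UMIs a cell. With 1 culture a day there is no replicate and no test, and the intervals below are exact 95% binomial ones that cover counting error only. UMIs of Zscan4c, Zscan4d or Zscan4f were found in 0 of 277 cells on day 0, 0 of 325 on day 1 and 0 of 341 on day 2, with exact upper limits of 1.32%, 1.13% and 1.08%. They were found in 3 of 257 cells on day 3 (1.17%, 0.241 to 3.37) and in 1 of 272 on day 4 (0.368%, 0.00931 to 2.03). Over all days, 4 of 1472 cells held 22 UMIs of the 3 copies (0.272%, 0.0741 to 0.694).

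Tcstv3 was found in 1 cell, on day 3, with 7 UMIs. Zfp352 was found in more cells, but thinly. It had UMIs in 1 cell on day 0 (0.361%), 4 on day 1 (1.23%), 7 on day 2 (2.05%), 7 on day 3 (2.72%) and 5 on day 4 (1.84%), together 24 of 1472 (1.63%, 1.05 to 2.42) with 31 UMIs. None of the 24 held a Zscan4 or Tcstv3 UMI. Of the 4 Zscan4 cells, 0 held Zfp352, with an exact upper limit of 60.2%. Sites recorded as empty, in which free RNA would appear, had none of the 5 genes in 54 sites, with an exact upper limit of 6.6%, at a median of 10048 UMIs, and the 35 sites with more than 1 cell had none either. The empty sites held 635670 UMIs in all, which puts their floor of 3 counts at 4.72 CPM, above the 0.3 CPM of the 5 genes in retained cells, so they could not show free RNA at that level.

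**Figure D4:**
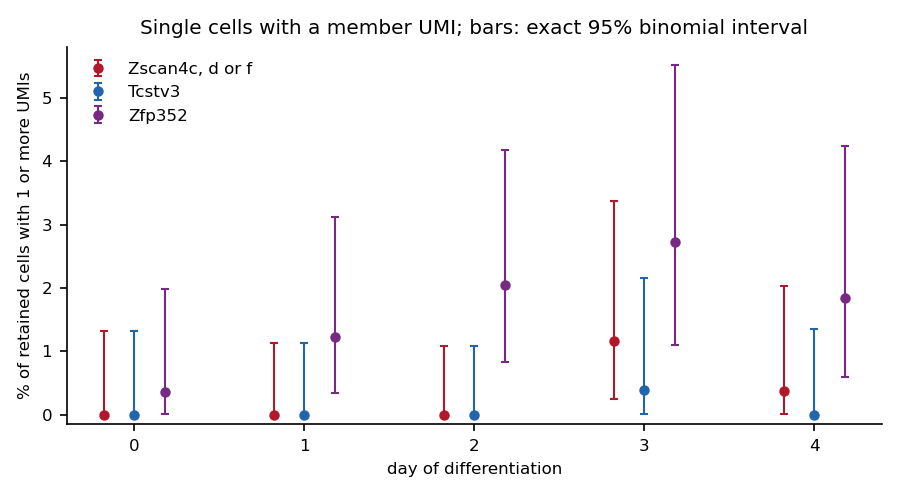
Percent of retained cells with 1 or more UMIs (y axis) of Zscan4c, Zscan4d or Zscan4f together (red), of Tcstv3 (blue) and of Zfp352 (purple) by day (x axis), with exact 95% binomial intervals as bars. The Zscan4 share is 0 on days 0 to 2 and 1.17% on day 3.

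In the bulk library of replicate 1, which came from the same cultures, the summed level of the 3 copies was 0 CPM on day 0, 0.116 on day 1, 1.10 on day 2, 6.99 on day 3 and 1.40 on day 4. The cells of the same days, summed, gave 0, 0, 0, 0.653 and 0.022 CPM. Both were highest on day 3, when 16 of the 21 UMIs in cells came from 1 cell. Zfp352 did not keep the same course in both: the bulk library gave 0, 0.175, 0, 1.36 and 0.273 CPM on days 0 to 4, and the cells 0.0255, 0.169, 0.166, 0.28 and 0.154 CPM, with counting intervals that overlap from day 1 to day 4. The cell values count only the 3′ end, with reads of another length, and only retained cells, so the scales are not the same. On day 2 the bulk library had 29 counts of the 3 copies while 0 of 341 cells had a UMI, so the shares are of cells with a UMI and do not limit the share of cells that held the RNA.

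The cells that held Zscan4 UMIs were described one by one. The day 3 cell in capture column 7, row 17 had 107176 UMIs, of which 6 were Zscan4c, 9 Zscan4d and 1 Zscan4f, and it was the only one with more than 5 Zscan4 UMIs (149 CPM). It also held 7 UMIs of Zscan4a, 4 of Zscan4-ps3, 2 of Zscan4-ps1 and 1 of Zscan4b, and 9 of the listed 2-cell-like genes in all. Dppa3 had 95 UMIs there and Dppa2 22, each at the 98.6 percentile of the day 3 cells, while Dppa4 had 0 and Xist 2. In the day 3 cells of column 8, row 31 and column 5, row 6, described below, Dppa3 was at the 66.7 and 17.9 percentile.

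The day 3 cell in column 8, row 31 had 151704 UMIs. It held 3 UMIs of Zscan4d and all 7 of Tcstv3, beside 9 of Zscan4a, 152 of Gm21761, 26 of Gm12794, 16 of B020004J07Rik, 11 of Gm8300 and 6 of Gm2022. Xist had 263 UMIs there. Of the 5 formative markers, Dnmt3b had 371 UMIs (87.7 percentile of the day 3 cells), Otx2 56 (94.0) and Fgf5 45 (74.9), while Pou3f1 had 1 (19.6) and Dnmt3a 0 (5.25). The third day 3 cell, in column 5, row 6, had 140186 UMIs with 2 of Zscan4c, 2 of Zscan4a, 2 of Gm21761 and 2 to 3 each of Usp17la, Usp17lc, Usp17ld and Usp17le. The day 4 cell, in column 10, row 17, had 1 UMI of Zscan4f among 243371, with 1 each of AF067061 and BC080695 and 500 of Krt8.

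**Figure D5:**
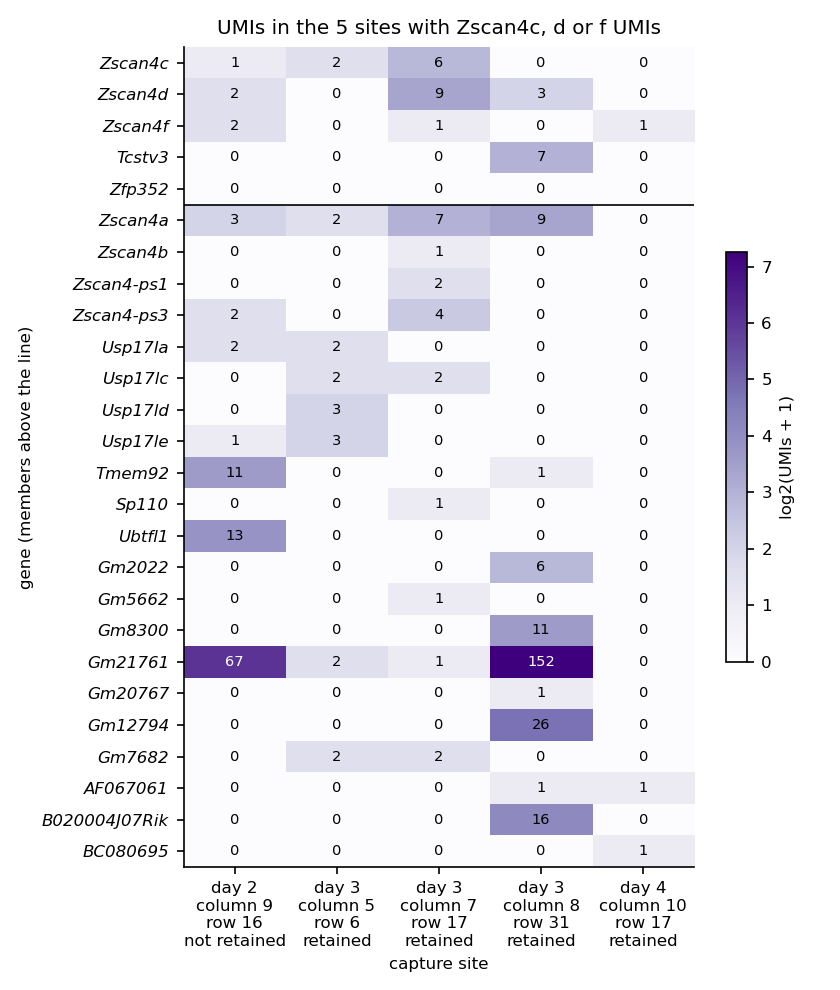
UMIs of the 5 genes (above the line) and of the other 2-cell-like genes with a UMI (below it) in the 5 capture sites with a Zscan4c, Zscan4d or Zscan4f UMI (x axis), coloured by log2(UMIs + 1), with the number of UMIs in each field. The site of day 2 was not retained as a cell. Zscan4a has UMIs in 4 of the 5 sites and Zfp352 in none.

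Of 35 2-cell-like genes compared, Tcstv3 and Zfp352 among them, 9 had a UMI in the 1 cell with more than 5 Zscan4 UMIs, and 19 in any of the 1468 cells with none. Over the 4 cells with 1 or more Zscan4 UMIs, a wider set taken after the values were seen, 21 of the 35 had a UMI. Zscan4a was found in 3 of these 4 cells (75%, 19.4 to 99.4) and in 2 of 1468 others (0.136%), and Gm21761 in 3 of 4 and in 8 of 1468 (0.545%). Some listed genes had their UMIs on other days, and the following were picked after their values were seen. Gm13119 had 18 UMIs in 6 cells of day 0 and none on days 1 to 4, and Ubtfl1 had 23 UMIs on day 0 and 6 on day 1. B020004J07Rik had 37, 20, 5, 16 and 0 UMIs on days 0 to 4. Zscan4a shares 50-base stretches with all 3 copies, so its UMIs are not independent of theirs.

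Over 1472 cells and 16173 genes, the genes most like the sum of the 5 were Gm21542 (r = 0.39), Gm8711 (0.362) and Gm21761 (0.343), then Cd52 at 0.193. Gm21542 and Gm21761 were also among the 10 most alike over the bulk libraries. The correlations rest on a few cells, since 9 cells had a UMI of Gm21542, 12 of Gm8711 and 11 of Gm21761, and they are weak.

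The hybrid genome gave little on the alleles. The exons of Zscan4c, Zscan4f and Tcstv3 hold none of the SNPs used to tell B6 from Cast, those of Zscan4d hold 1 and those of Zfp352 hold 7. Accordingly, 21 of the 140 Zfp352 counts in TX1072 were assigned to an allele (15%), 8 to B6 and 13 to Cast, and 56 of 203 in the deletion lines (27.6%), 38 to B6 and 18 to Cast. For Zscan4d, 5 of 445 counts in TX1072 and 23 of 676 in the deletion lines were assigned. These numbers were too small to compare the alleles by day.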

How the data were processed

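Processed tables deposited by the authors were used. Per their methods, the authors aligned reads with STAR (2.5.2b in the submitters' processing notes) to mm10 with strain SNPs masked and kept uniquely aligned reads. They counted bulk reads over exons with featureCounts and single-cell UMIs with the Drop-seq pipeline, and split alleles with SNPsplit. The deposited values are raw counts per gene (reads in bulk, UMIs in cells). The authors' list of SNP positions (deposited with unit "other") was used to count SNPs in exons. No pair of libraries and no pair of capture sites held identical values, and there were 0 columns of other series.

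Counts were tested with edgeR 4.0.16 (R 4.3.3; quasi-likelihood, filterByExpr, TMM, two-sided, Benjamini-Hochberg over all genes tested, adjusted p 0.05), with 1 fit of the 15 TX1072 libraries and 1 of the 30 deletion-line libraries, by day or by line and day. The alternatives were DESeq2 1.42.0, edgeR with the size factors of DESeq2, testing without the low-count filter, blocking on the replicate number, and leaving out each replicate or each library. The step contrasts, the single-library fits and the set of cells with 1 or more Zscan4 UMIs were added after the data were seen. The SE is the log2 fold change divided by the square root of F. Folds against groups at 0 use a floor of 3 counts over the group. Counting intervals are exact at 95% and cover counting error only. On simulated counts, 97% of 2-fold changes were recovered in TX1072 day 3 against day 0 (18299 genes; 4.37% of calls false) and 96% in TXdXicB6 (18710 genes; 4.39% false).

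Replicate numbers paired the samples, since each replicate was differentiated on its own day; the median correlation of deviations was 0.168 within a number and -0.0901 between numbers in TX1072, and 0.185 and -0.122 in the deletion lines. Day 1 of the cells has samples for 2 sequencing runs, and whether its columns hold 1 run or their sum is not given in the sources used here. Single-cell values used the authors' retained cells, and 75 spike-in rows were left out. The authors' exclusions removed sites marked as holding more than 1 cell, and no further doublet caller was run. Depths were 19827011 to 39628784 counts in TX1072, 20246434 to 49962859 in TXdXicB6 and 16906263 to 57920260 in TXdXicCast. Named genes were the 5 genes, the 3 largest called rises and falls of each list at TX1072 day 4, a few fixed genes such as Zscan4a and Dppa2, and the 10 genes most alike in libraries and in cells. The genes and lists were chosen with earlier results of these data known. List genes had a row in GENCODE M21 for 124 of 125.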

Additional observations from a re-analysis of the deposited data

Results flagged for a closer look

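The share of cells with a UMI was also taken over the 10 capture columns of each day. In 6 of the 8 sets of columns with any positive cell the highest column was flagged as an outlier. Chance flags about 1 in 20 sets of continuous values, but that rate does not hold here: where a day has 1 positive cell (Zscan4 on day 4, Tcstv3 on day 3 and Zfp352 on day 0), 1 column must stand apart from the others at 0. For Zscan4c, Zscan4d and Zscan4f summed, the highest column of day 4 had 3.23% of its cells, and for Tcstv3 the highest column of day 3 had 4.0%. For Zfp352, the highest columns had 3.12% on day 0, 6.45% on day 1, 6.06% on day 2 and 8.33% on day 3. On days 1 to 3 these highest columns of Zfp352 held 2 positive cells each, and the other columns held 1 or 0. Such flags rest on single cells and do not show a difference between columns. The other columns ranged down to 0 in each flagged set.

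Sites that the authors did not retain as cells also held the RNA of these genes. The day 2 site in column 9, row 16, with 49844 UMIs, held 5 UMIs of Zscan4c, Zscan4d and Zscan4f (100 CPM). No retained cell of day 2 held a UMI of these copies. The site also held 67 UMIs of Gm21761, 13 of Ubtfl1, 11 of Tmem92 and 3 of Zscan4a. The day 4 site in column 2, row 27, with 5893 UMIs, held 3 UMIs of Tcstv3 and 8 of Gm21761. Zfp352 had 10 UMIs over 9 of the 528 sites not retained.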

How the results depend on the processing

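The 5 genes gave 165 tests, 85 of them past the adjusted p of 0.05. Under DESeq2, its size factors, no filter on low counts, the replicate block and the fits without 1 replicate number, 1025 values of single genes kept their direction and side of the threshold, 52 lost the call, 14 gained it and 31 changed sign. None of those that changed sign passed the threshold before or after. The count called in TX1072 on day 1 was 0, and 1 under DESeq2 or with no filter on low counts. The count called between the deletion lines on day 2 was 0, and 1 under DESeq2 and 2 with no filter. Without 1 replicate number, the count in TXdXicB6 on day 2 was 0 to 2 (main 3), that in TXdXicCast on day 1 was 0 to 1 (main 1), and that from day 3 to day 4 in TX1072 was 2 to 4 (main 4). The replicate block changed 1 call, that of Zscan4f from day 3 to day 4 in TXdXicCast (adjusted p = 0.0418), and no other call of the 5 genes. Zfp352 was in 2.05% of day 2 cells, and in 0.0% when 2 or more UMIs were asked for. Of 35 2-cell-like genes, Tcstv3 and Zfp352 among them, 9 had a UMI in the cell with more than 5 Zscan4 UMIs, 17 in the 2 cells with more than 2, 21 in the 4 cells with 1 or more, and 2 when each cell was thinned to 40000 UMIs. The causes of these shifts were not tested, except that the wider cell sets hold more cells and thinning leaves fewer UMIs.

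The log2 values that changed sign without 1 replicate number ran, for day 1 against day 0, from -0.99 to 1.85 for Zscan4d in TXdXicB6, -1.58 to 1.64 for Zscan4c in TXdXicCast, -2.84 to 3.82 for Zscan4d in TXdXicCast and -3.66 to 2.51 for Tcstv3 in TXdXicCast. For Zfp352 between later days they ran from -4.61 to 2.06 for TX1072 (day 2 against day 1), -0.16 to 0.39 for TXdXicB6 (day 4 against day 3), -0.67 to 0.57 for TXdXicCast (day 2 against day 1) and -0.34 to 0.11 for TXdXicCast (day 4 against day 3). Between the deletion lines they ran from -2.71 to 1.06 for Zscan4d on day 0, -0.42 to 2.70 for Zscan4f on day 0 and -0.89 to 1.00 for Zscan4c on day 1. The difference in the change from day 0 between the lines ran on day 1 from -2.19 to 0.81 for Zscan4c, -1.85 to 1.97 for Zscan4d and -3.66 to 2.51 for Tcstv3. On day 2 that difference ran from -0.00705 to 1.85 for Zscan4c, -0.42 to 1.89 for Zscan4f and -2.81 to 0.75 for Tcstv3. On day 3 that difference ran from -0.25 to 0.23 for Zscan4c, -0.47 to 3.87 for Zscan4d, -2.10 to 1.68 for Zscan4f and -3.59 to 0.0858 for Tcstv3. On day 4 that difference ran from -0.998 to 0.216 for Zscan4c, -0.69 to 2.92 for Zscan4d, -2.25 to 1.27 for Zscan4f and -3.49 to 0.56 for Tcstv3. Zscan4c on day 1 in TXdXicCast, at 0.0046 against day 0, was at -0.0033 under DESeq2, -0.0199 with its size factors, -0.0494 with no filter and -0.0312 with the replicate block.

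Over all genes, the count called between the deletion lines was 80 on day 1, 147 under DESeq2 and 198 with no filter, 74 on day 2, 139, 200 and 124 with the replicate block, 251 on day 3, 504, 575 and 447, and 1165 on day 4, 1772 with the block. The count for the change from day 0 was 915 on day 1, 1903 under DESeq2 and 2209 with the block, 1307 on day 2, 2179 and 2568, and 1814 on day 3, 2959 with the block. Without 1 replicate number, the counts between the lines were 791 to 2924 on day 0 (main 3929), 2 to 24 on day 1, 0 to 30 on day 2, 10 to 43 on day 3 and 342 to 424 on day 4, and those for the change from day 0 were 0 to 373, 1 to 229, 1 to 932 and 98 to 1812 (main 2979) on days 1 to 4. In cells, a gene with under 3 counts in all cells of a day lies below 0.066 to 0.0933 CPM. Each deletion line was 1 clone and each day of cells 1 culture. Between the lines, the counts on day 0 and for the change from day 0 also carry the other fragmentation of the TXdXicCast day 0 libraries.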

Other observations

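Zscan4e, a copy that had too few counts to be tested in TX1072, was at 0.394, 0.272 and 0.852 CPM there on day 3. It was at 1.58, 1.55 and 0.948 CPM in TXdXicB6 and at 2.23, 1.46 and 1.84 CPM in TXdXicCast. The level of a single copy is uncertain, and TX1072 and the deletion lines differ in kit and read length and were scaled apart, so these values were not compared.

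Dppa2 was high in 2 of the 3 day 3 cells with Zscan4 UMIs, with 22 UMIs in the cell of column 7, row 17 and 34 in that of column 8, row 31, which put them at the 98.6 and 99.0 percentile of the retained cells of day 3. The remaining day 3 cell, in column 5, row 6, had 4 Dppa2 UMIs, at the 56.6 percentile. In the same 3 cells, in that order, the repressor Trim28 was at the 90.9, 94.0 and 5.25 percentile and Dnmt3b at 99.0, 87.7 and 73.7. Dppa4, the partner of Dppa2, was at 5.45, 78.4 and 55.1, and Dppa3 at 98.6, 66.7 and 17.9. The day 4 cell with a Zscan4 UMI, in column 10, row 17, had 0 UMIs of Dppa2 and 0 of Dppa4. The percentiles describe 3 cells of 1 culture, and the observation was picked after the values were seen. Dppa2 was looked up in these cells because it is on the list of activators. It had a UMI in 174 of the 257 retained cells of day 3 (67.7%).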
